A study of Mus musculus with 30 samples.

Results

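The genes described here encode hormones of the anterior pituitary, the gland attached to the base of the hypothalamus, together with transcription factors that its hormone cells use. The set held 7 genes: *Prl*, *Gh*, *Cga*, *Lhb*, *Tshb*, *Pou1f1* and *Pitx1*. Members were all array probes that carried one of these gene names, whatever their level. Of the 7 genes, 6 had a probe, and *Pou1f1* had none under that name. The 6 genes were represented by 7 probes, 2 of them for *Tshb*, out of 41174 probes under 28146 gene names on the array. All 7 probes passed the filter on dim probes, which kept 29947 probes for testing. The main *Tshb* probe did so through part of the mice only, as described below.

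RNA was taken from blocks of hypothalamus dissected from 30 male C57BL/6 mice, 1 array per mouse, and was hybridized in 1 colour to Agilent whole mouse genome arrays of 60-base probes. The mice lived under an ultradian cycle of 3.5 h light and 3.5 h dark, and brains were collected in the 17th light phase, a protocol in which light suppresses activity. The arrays fell into 2 runs that differed in scanner model and file layout, so that knock-in mice were compared with the wild-type (WT) mice of their own run. Run 1 held 14 arrays, 7 of *Per3* 5/5 knock-in mice (the line labelled Boxhill) and 7 of WT mice (arrays 1 to 7). Run 2 held 16 arrays, 8 of *Per3* 4/4 knock-in mice (the line labelled Coach) and 8 of WT mice (arrays 8 to 15). In both knock-in lines exon 18 of mouse *Per3* was replaced by the human exon, which carries either 5 or 4 copies of a repeat. WT mice came from the same breeding, in which a Cre recombinase expressed in all cells had been used on the targeted allele and then bred out. Arrays of a run shared 4 scan times, each with knock-in and WT arrays, and a scan time is called a slide here. In run 1 the scan times matched 4 slide barcodes, whereas the 4 scan times of run 2 held only 3 barcodes, so that the slides of run 2 are inferred. Levels below are log2 signals relative to the 75th percentile of the same array, so that 0 marks a probe as bright as that percentile.

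Anterior pituitary cells are specialised by hormone. Lactotrophs make prolactin and somatotrophs make growth hormone, and both arise from cells that depend on POU1F1, also called Pit-1, as do the thyrotrophs that make thyrotropin. Thyrotropin, luteinising hormone and follicle-stimulating hormone share an alpha subunit, encoded by *Cga*, and differ in their beta subunits, encoded by *Tshb*, *Lhb* and *Fshb*. *Pitx1* encodes a homeodomain factor used in most anterior pituitary lineages. *Cga*, *Tshb* and *Pitx1* are also expressed in the pars tuberalis, a thin layer of pituitary tissue on the underside of the hypothalamus in which thyrotropin follows the light schedule. Hypothalamic neurons act on the gland from a distance: dopamine restrains prolactin release, while *Ghrh*, *Trh* and *Gnrh1* products stimulate growth hormone, thyrotropin and the gonadotropins.

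The probes are given here because every level below rests on one short stretch per gene, with no second probe to check it except in the case of *Tshb*. Coordinates are those of the array annotation, on mm9. The *Prl* probe (A_51_P155514) lay at chr13:27156985-27157044 and the *Pitx1* probe (A_52_P522255) at chr13:55926417-55926476. The *Cga* probe (A_51_P504362) lay at chr4:34854483-34854542. The 60 bases of the *Gh* probe (A_51_P104687) were listed over 244 bases at chr11:106162492-106162735, those of the *Lhb* probe (A_51_P476529) over 213 bases at chr7:52676746-52676958, and those of the main *Tshb* probe (A_52_P146711) over 485 bases at chr3:102581608-102582092. The second *Tshb* probe (A_51_P252243) lay at chr3:102583248-102583307, was designed on a cDNA clone and was listed on the opposite strand to the main one. The exon or UTR that each probe lies in was not looked up here. The longest run of bases shared by any 2 of the 7 probes was 8. The first 30 bases, 5′ to 3′, are printed for the probes of the 5 hormone genes, with both probes of *Tshb*, as what was measured.
*Prl*: tgctttatagttttcagtgcatgcttgggt
*Gh*: tggctgctgacacctacaaagagttcgagc
*Cga*: tgacgcgcttcagttacacactgcctcttt
*Lhb*: tagcatggtccgagtactgccggctgcttt
*Tshb*: ctgggtattgtatgacacgggatatcaatg
*Tshb* second probe: tgaaggagacttttgactcccttttactaa

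Because *Prl* and other members are known targets of POU1F1, for which the array had no probe under its own name, their RefSeq promoters (GRCm38.p6, 250 bases before to 50 after the start) were searched for the Pit-1 motif TATNCAT on both strands (ATGNATA on the other). No other motif was searched. The motif was present in 2903 of 32851 promoters, or 8.84%. The *Prl* promoter held 2 matches, and 1 of the 2 listed promoters of *Pou1f1* itself held 2. The windows of *Cga*, *Lhb* and *Tshb* held none, and *Gh* and *Pitx1* were not in the table. A match is a description of the letters and not a bound site. The windows below have the motif in capitals and show the *Prl* matches that begin 148 and 47 bases before the start and the *Pou1f1* match that begins 57 bases before it.
*Prl* at chr13:27057411-27057440: tcttcctgaatATGAATAagaaataaaata
*Prl* at chr13:27057512-27057541: ctgattatataTATTCATgaagatgtcaaa
*Pou1f1* at chr16:65520444-65520473: aaactattaacATGTATAaatggatttcct

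The tissue label was checked against 9 genes of hypothalamic neurons (*Avp*, *Oxt*, *Hcrt*, *Pmch*, *Agrp*, *Npy*, *Cartpt*, *Sim1* and *Nkx2-1*). Of these 9, 8 were well above background on all 30 arrays. *Sim1*, a transcription factor gene of the paraventricular nucleus, was so on the 14 arrays of run 1 and on none of run 2. WT array 10 went against the label. There *Hcrt*, which encodes the orexin peptides, stood at -0.79 against 5.58 to 7.18 on the other 15 arrays of run 2, and *Pmch*, which encodes melanin-concentrating hormone, at -0.96 against 4.29 to 6.65. *Avp* and *Oxt* were also lowest there, at 1.43 and 2.19, and 7 of the 9 genes had their lowest level of run 2 on this array. *Npy*, a neuropeptide gene of the same list, was instead highest there, at 3.81 against at most 2.63 elsewhere. Relative to the median of the other 7 WT arrays of the run, 148 probes of array 10 were at least 3 log2 units higher and 170 at least 3 lower.

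WT array 14 stood apart in the opposite sense, through its pituitary genes. All 6 genes with a probe had their highest level of run 2 on this array, by the main probe of each. *Gh* stood at 8.69, against -5.71 to 2.06 on the other WT arrays of the run. *Prl* stood at 8.14 and *Cga* at 8.06. Summed as linear signals in units of the 75th percentile, the 6 genes reached 986 on array 14 and 0.31 to 25.2 on the other 15 arrays of run 2 (median 4.91), and *Gh* was the brightest of them there. Among 17 further pituitary genes, 9 were highest of the run on this array and 6 exceeded the median of the other 7 WT arrays by at least 3 log2 units. Of these 6, *Pomc*, the precursor of adrenocorticotropin (4.68 higher), and *Fshb* (5.60 higher) were well above background on 7 and 5 of those 7 arrays. The others were mostly at background there, so that their differences have no exact size. *Ghrhr*, the somatotroph receptor for growth hormone-releasing hormone, was well above background on 3 of the 7, *Lhx3*, a factor of pituitary development, on 2, and *Gnrhr*, the receptor of gonadotrophs for gonadotropin-releasing hormone, on 1. *Tbx19*, a corticotroph factor, was so on 0 of the 7, and on array 14 it was at least 8.96-fold higher than their background bound. The summed level of the 17 genes was 404 on array 14 and 2.07 to 56.8 elsewhere in run 2, with *Pomc* the brightest gene on each of these arrays. In contrast, the hypothalamic neuron genes of array 14 summed to 249, close to the median of 248 of the other arrays. Its choroid plexus genes summed to 8.10, against a median of 4.65 and a range of 2.36 to 25.5, and held rank 6 of 16. Of these, *Ttr* and *Kcne2* lay 4.30 and 3.30 above the median of the other 7 WT arrays, but also held rank 6. Its blood genes held rank 10 of 16 by summed level, and its connective tissue genes were the highest (28.6 against at most 26.9). On array 14, 71 probes, or 0.238% of those compared, were at least 3 log2 units above the median of the other WT arrays and 7 were at least 3 below.

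**Figure D1:**
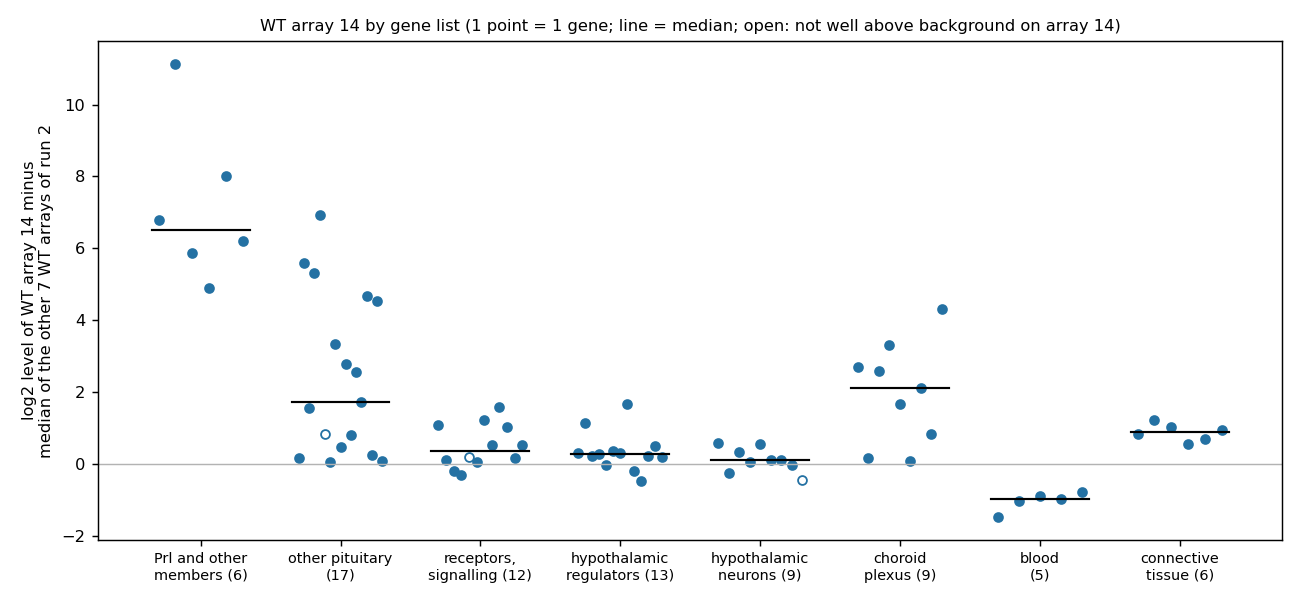
Each point is 1 gene, shown as its log2 level on WT array 14 minus the median of the other 7 WT arrays of run 2 (vertical axis, log2 units), by gene list (horizontal axis, number of genes in brackets). Lines are medians and open points were not well above background on array 14. The 6 genes of the set, the hormone genes and *Pitx1*, lie between 4.89 and 11.1, while the hypothalamic neuron genes lie near 0. The points of *Gnrhr*, *Ghrhr*, *Lhx3* and *Tbx19* are set against a median at background.

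In run 1 no array stood apart for all of these genes. *Per3* 5/5 array 1 had the highest *Prl*, *Gh* and *Pomc* levels of its group, while its main *Tshb* level (-7.70) was the lowest of the group. Its 17 further pituitary genes summed to 51.0, against 4.15 to 11.4 on the other 13 arrays. That sum came from *Pomc*, at 5.63, and without *Pomc* it was 1.64, against 1.35 to 2.53 elsewhere (rank 9 of 14). *Pomc* is also made by hypothalamic neurons of the arcuate nucleus. By the sum of the 6 member genes, *Per3* 5/5 array 6 was the highest of run 1 (4.26), and array 1 held rank 3 of 14 (1.39). For this reason the differences in run 2 are also given without WT arrays 10 and 14, and those of run 1 without *Per3* 5/5 array 1 or 6 where these moved them. In bulk RNA of this kind, a smaller number of pituitary cells and less hormone RNA per cell cannot be told apart. The part that pituitary tissue in the blocks plays in the results below was not tested.

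*Prl*, the prolactin gene, had the largest SD of the 7 probes in 3 of the 4 groups. In run 1 it ranged in *Per3* 5/5 mice from -6.43 to -0.95 with a median of -5.77, and in WT mice from -7.45 to -3.87 with a median of -5.60. In each group 4 of the 7 arrays had the probe well above background. Arrays 1 and 6 of *Per3* 5/5, at -0.95 and -1.60, were above all WT arrays, and the other 5 lay within the WT range. In run 2 *Prl* ranged in *Per3* 4/4 mice from -5.93 to 3.94 with a median of -0.60, and in WT mice from -6.30 to 8.14 with a median of 0.60. Here 7 and 6 of the 8 arrays, respectively, were well above background. Apart from WT array 14, the 2 groups overlapped over nearly the whole range, and the highest other WT level was that of array 9, at 3.70. The difference of 0.85 in run 1 had a 95% interval of -2.48 to 4.18, and that of -0.83 in run 2 one of -3.95 to 2.28. Each interval covers changes of severalfold in either direction. Neither difference has an exact size, since arrays with the probe at background were part of each, most of all in run 1. With WT array 14 left out of the spread that both runs share in the limma model, the run 1 interval was -2.03 to 3.73. Without *Per3* 5/5 array 1 the run 1 difference was 0.24 and without array 6 it was 0.35. Without WT arrays 10 and 14 the run 2 difference was 0.11, with the sign turned.

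*Gh*, the growth hormone gene, spread more widely in *Per3* 5/5 than in WT mice of run 1. The *Per3* 5/5 levels ranged from -4.66 to -2.48 with a median of -3.88, and the WT levels from -4.03 to -3.62 with a median of -3.92. Array 1 of *Per3* 5/5 was the highest of the run, as it was for *Prl*, and arrays 3, 5 and 6 (-4.66, -4.50 and -4.30) were below all WT arrays. All 14 arrays were well above background, and the difference was -0.02 (standard error 1.30), or -0.26 without array 1. The limma model shares 1 estimate of the spread over both runs, and without WT array 14 of run 2 that standard error was 0.86. In run 2 the *Per3* 4/4 levels ranged from -5.23 to 0.47 with a median of -1.08 and the WT levels from -5.71 to 8.69 with a median of -1.30. The 2 medians were thus close while the means, -1.62 ± 1.76 (SD, n = 8) and -0.64 ± 4.59 (SD, n = 8), differed by -0.97 through array 14. The difference became 0.36 without that array and 0.28 without arrays 10 and 14.

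*Cga*, which encodes the shared alpha subunit, was well above background on all 30 arrays. Its level in run 1 ranged from -4.79 to 1.66 in *Per3* 5/5 mice and from -4.48 to -0.51 in WT mice, with medians of -2.23 and -1.65. The highest value belonged to *Per3* 5/5 array 6, which was also the highest of run 1 for *Tshb* and *Pitx1*. The run 1 differences of *Cga*, *Tshb* and *Pitx1* were 0.35, 0.53 and 0.06 with all arrays and -0.23, -0.01 and -0.20 without array 6. That of *Tshb* has no exact size, since most arrays of the run had its probe at background. In run 2 all 8 *Per3* 4/4 arrays lay in a narrow band from 0.27 to 3.09, with a mean of 1.44 ± 1.02 (SD, n = 8). The WT arrays spread from -5.20 on array 10 to 8.06 on array 14, with a mean of 0.86 ± 4.17 (SD, n = 8), so that the knock-in band lay inside the WT range. The difference of 0.58 (95% interval -1.88 to 3.04) became 1.61 without array 14, -0.28 without array 10 and 0.78 without both.

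*Tshb*, which encodes the beta subunit of thyrotropin, was near background in run 1. Among the *Per3* 5/5 arrays 3 of 7 had its main probe well above background, as did 1 of the 7 WT arrays, and the levels ran from -7.70 to -2.79 and from -7.76 to -5.66. *Per3* 5/5 arrays 6, 3 and 5 were above all WT arrays, at -2.79, -4.08 and -5.21. In run 2 all 8 *Per3* 4/4 arrays were well above background, between -4.02 and -2.24, and 6 of the 8 WT arrays were, over a range of -7.88 to 2.98. As for *Cga*, the extremes were WT arrays 10 and 14. The difference in run 2 was 0.14 with all arrays, 1.05 without array 14, -0.50 without array 10 and 0.46 without both. The main probe passed the filter on dim probes, 50% or more of the arrays of any genotype, through the arrays of run 2. In run 1 neither group reached that share, although the probe was tested there too. The second *Tshb* probe, on the other strand, did not follow the main one. It was not among the highest on array 14, where it held rank 10 of 16 at -5.11. Its difference in run 2 was 0.37, or 0.15 without arrays 10 and 14.

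*Lhb*, which encodes the beta subunit of luteinising hormone, had the smallest SD of the main probes in 3 of the 4 groups once array 14 was left out. In run 1 it lay between -1.69 and -1.02 in *Per3* 5/5 mice and between -1.77 and -0.70 in WT mice. In run 2 it lay between -3.41 and -2.04 in *Per3* 4/4 mice. The WT arrays lay between -3.44 and -1.80 except for array 14 at 3.24, and the difference of -0.80 was -0.08 without that array and -0.12 without arrays 10 and 14. In run 1 the difference was -0.07, with a standard error of 0.57, or of 0.23 when array 14 of run 2 was left out of the shared estimate.

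*Pitx1*, the transcription factor gene, gave the largest fitted difference of run 2 without array 14. Its place above *Cga* (1.61 without that array) is not settled, since WT arrays 10 and 12 had the *Pitx1* probe at background. In run 1 the *Per3* 5/5 mean was -4.27 ± 1.16 (SD, n = 7) and the WT mean -4.33 ± 0.77 (SD, n = 7). In run 2 all 8 *Per3* 4/4 arrays were well above background, from -2.94 to -1.31. The WT arrays fell apart: arrays 9, 11, 13 and 15 lay between -2.41 and -1.80 and overlapped the knock-in arrays, arrays 8, 10 and 12 lay between -7.70 and -5.76, and array 14 stood at 2.48. With the probe at background on arrays 10 and 12, the run 2 differences below have no exact size. The difference was 1.11 (95% interval -0.72 to 2.94) with all arrays. It was 1.94 without array 14 (unadjusted p = 0.0124, adjusted p = 1.0 by limma), 1.45 without arrays 10 and 14 (unadjusted p = 0.0474, adjusted p = 0.99991) and 0.57 without array 10 (unadjusted p = 0.511). The low arrays 8, 10 and 12 were also the lowest WT arrays of run 2 for *Cga* and, with array 15 next, for *Tshb*.

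**Figure D2:**
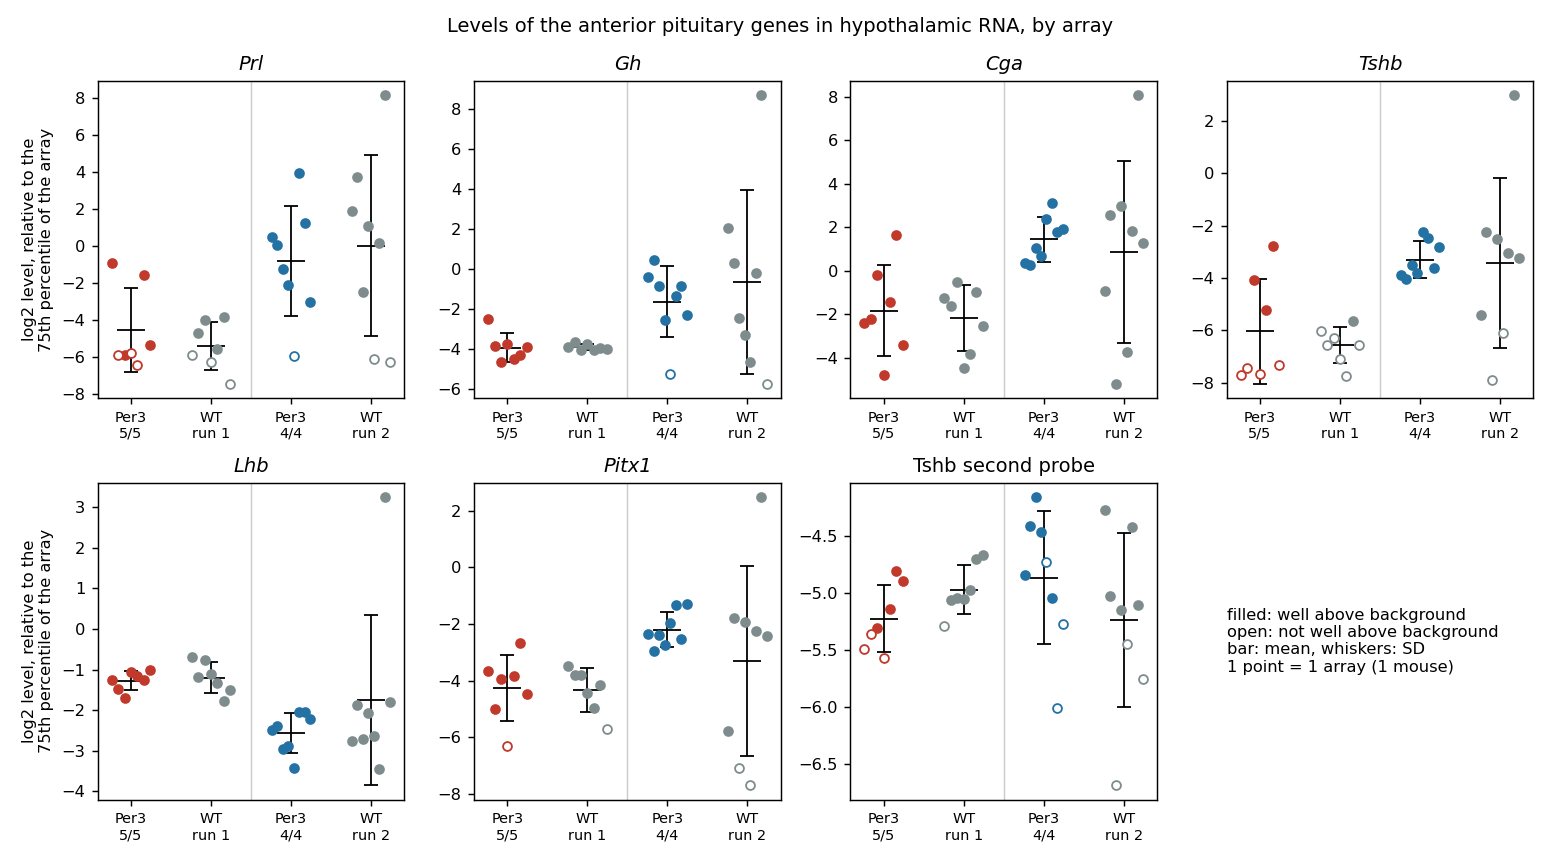
Log2 level of each member probe relative to the 75th percentile of the array (vertical axis) in the 4 groups (horizontal axis). Points are single mice, open where the probe was not well above background, and bars and whiskers are means and SD. WT array 14 is the top point of the WT group of run 2 in every panel but that of the second *Tshb* probe, and the groups overlap in all panels.

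By limma, 0 of the 7 member probes reached an adjusted p under 0.05 in *Per3* 5/5 mice, as did 0 of all 29947 probes (0.0%). In *Per3* 4/4 mice 0 of the 7 did, and 4 of all probes (0.0134%). At an unadjusted p under 0.05 the count of members was 0 in both comparisons, against 6.17% and 1.73% of all probes tested. The lowest adjusted p of a member was 0.930 in *Per3* 5/5, for the second *Tshb* probe, and 0.99999 in *Per3* 4/4. The median difference of the 6 main probes was 0.21 in *Per3* 5/5, with 4 above 0 (*Tshb* among them), and -0.33 in *Per3* 4/4, with 3 above 0. Single arrays turned these signs. In *Per3* 4/4 the median was 0.71 without WT array 14 (5 above 0), -0.72 without array 10 (1 above 0) and 0.37 without both (5 above 0), and in *Per3* 5/5 it was 0.10 without array 1 (3 above 0) and -0.04 without array 6 (2 above 0). Over all probes tested the medians were -0.02 and 0.01. The test of whether the 2 knock-in effects differed passed 0 of the 7 probes and 0 of 29947 (0.0%), and 2.98% of all probes and 0 members had an unadjusted p under 0.05. For *Prl* the *Per3* 5/5 effect exceeded the *Per3* 4/4 effect by 1.68 with a standard error of 2.23. Exact two-sided permutation tests within a run gave p-values of at least 0.0897 (at least 0.931 after Benjamini-Hochberg adjustment over 14 tests), where the smallest possible values were 0.000583 with 7 against 7 arrays and 0.000155 with 8 against 8. In run 2 without array 14, array 10 or both, they were at least 0.0769 (at least 0.523 after adjustment over the 7 probes). No member separated the groups completely, which 0.174% of all probes did in run 1 and 0.0134% in run 2. Within the 4 slides of each run, *Prl* was higher in knock-in mice on 2 slides of run 1 (differences of -1.16 to 4.02) and on 1 slide of run 2 (-2.54 to 1.99), or on 2 without arrays 10 and 14 (-2.75 to 5.40). *Pitx1* was higher on 3 slides in each run (-0.96 to 1.36 and -1.95 to 3.33), and on 3 of run 2 without those arrays (-0.65 to 3.33).

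**Figure D3:**
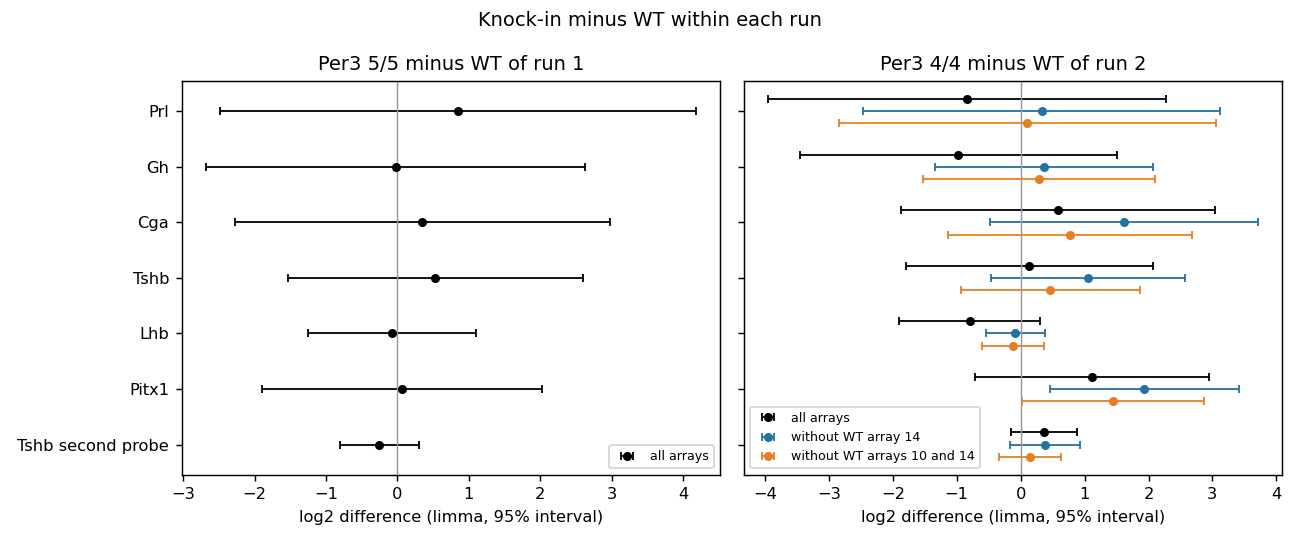
Knock-in minus WT difference of each member probe (horizontal axis, log2 units) with its 95% interval from limma, for *Per3* 5/5 in run 1 (left) and *Per3* 4/4 in run 2 (right). In run 2 the differences of *Prl* and *Gh* lie below 0 with all arrays and above 0 without WT array 14, and the unadjusted *Pitx1* interval lies above 0 once array 14 is left out. The size of that *Pitx1* difference is not exact, since WT arrays 10 and 12 had its probe at background. Those of *Prl* and *Tshb* are not exact either, since some arrays had their probes at background.

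The rank product, a test on ranks that the study's methods apply with a false prediction limit of 0.015, gave other counts. In *Per3* 5/5 it called *Prl* as higher (0.00567), where it called 51 of 29928 probes as higher (0.17%) and 266 as lower (0.889%). In *Per3* 4/4 it called *Prl* (0.0) and *Gh* (0.00111) as lower and *Cga* (0.00421) and *Pitx1* (0.002) as higher, where it called 33 of 29835 probes as higher (0.111%) and 14 as lower (0.0469%). Thus 1 member of 7 probes was called in one comparison and 4 in the other. These calls depended on single arrays. *Prl* was no longer called in *Per3* 5/5 without array 1 (0.105, with 0.17% of probes called as higher and 1.6% as lower) or without array 6 (0.152, with 0.0601% and 0.491%). Without array 1 the main *Tshb* probe was called as higher instead (0.0105), although only 3 *Per3* 5/5 arrays and 1 WT array of the run had it well above background. Without WT array 14, *Prl* in *Per3* 4/4 was called in both directions, as lower (0.0122, with 0.0335% called as lower) and as higher (0.00368, with 0.101% called as higher), and *Gh* was called as higher (0.0113). *Cga* and *Pitx1* were still called as higher. Without array 10 they were not (0.111 and 0.0408, with 0.0536% called as higher), and *Prl* (0.0) and *Gh* (0.00125) were called as lower, as were 0.0503% of probes. Without both arrays *Pitx1* (0.0126) and *Gh* (0.0128) were called as higher, where 0.0838% were, and *Prl* in both directions (0.00167 as lower, where 0.0302% were, and 0.0119 as higher), while *Cga* was not called (0.0423). The methods' t-test passed 0 members in each comparison after Benjamini-Hochberg adjustment, as it did 0 of all probes (0.0% in each). At an unadjusted p under 0.05 it passed 0 members, against 10.4% of all probes in *Per3* 5/5 and 0.985% in *Per3* 4/4.

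Some of the members varied together from mouse to mouse, and the pairs that passed the test over 30 arrays linked 5 members in 2 blocks. For this comparison the mean of each group was subtracted, so that differences between groups and runs play no part, and 21 pairs of probes were compared with permutation tests over the arrays, adjusted over the 21 pairs. Of these, 4 passed with the scaling used here. *Prl* and *Gh*, the lactotroph and somatotroph hormones, formed one block. Their levels correlated with r = 0.81 (adjusted permutation p = 0.000315) and rho = 0.71 (adjusted p = 0.0021) over 30 arrays. *Cga*, *Tshb* and *Pitx1*, which are shared by thyrotrophs and the pars tuberalis, formed the other. *Cga* and *Tshb* correlated with r = 0.95 (rho = 0.92), *Cga* and *Pitx1* with r = 0.92 (rho = 0.85), and *Tshb* and *Pitx1* with r = 0.89 (rho = 0.79), each with an adjusted permutation p of 7e-05 for r. The unadjusted p of these 3 pairs, 1e-05, is the smallest that 100000 permutations can give.

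These 4 pairs kept their correlation without array 14. There *Prl* and *Gh* correlated with r = 0.74 (adjusted permutation p = 0.00236), *Cga* and *Tshb* with 0.92, *Cga* and *Pitx1* with 0.88 and *Tshb* and *Pitx1* with 0.81 (adjusted p of 0.000105, 0.000105 and 0.00021). Without arrays 10 and 14 the 4 values were 0.74, 0.90, 0.85 and 0.76. Leaving out the 2 arrays farthest from the median of *Prl*, *Per3* 4/4 array 6 and WT array 14, gave 0.79, 0.92, 0.88 and 0.80. With slide means also subtracted, *Prl* and *Gh* correlated with r = 0.80. Within run 2 the 4 values were 0.86, 0.98, 0.97 and 0.96, with adjusted p-values of at most 0.00042. Within run 1, where *Prl* and *Tshb* were near background on many arrays, they were 0.50, 0.86, 0.77 and 0.64. There the pairs *Cga* with *Tshb* and *Cga* with *Pitx1* passed (adjusted permutation p = 0.00105 and 0.0417), and those of *Prl* with *Gh* and *Tshb* with *Pitx1* did not (0.427 and 0.209).

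**Figure D4:**
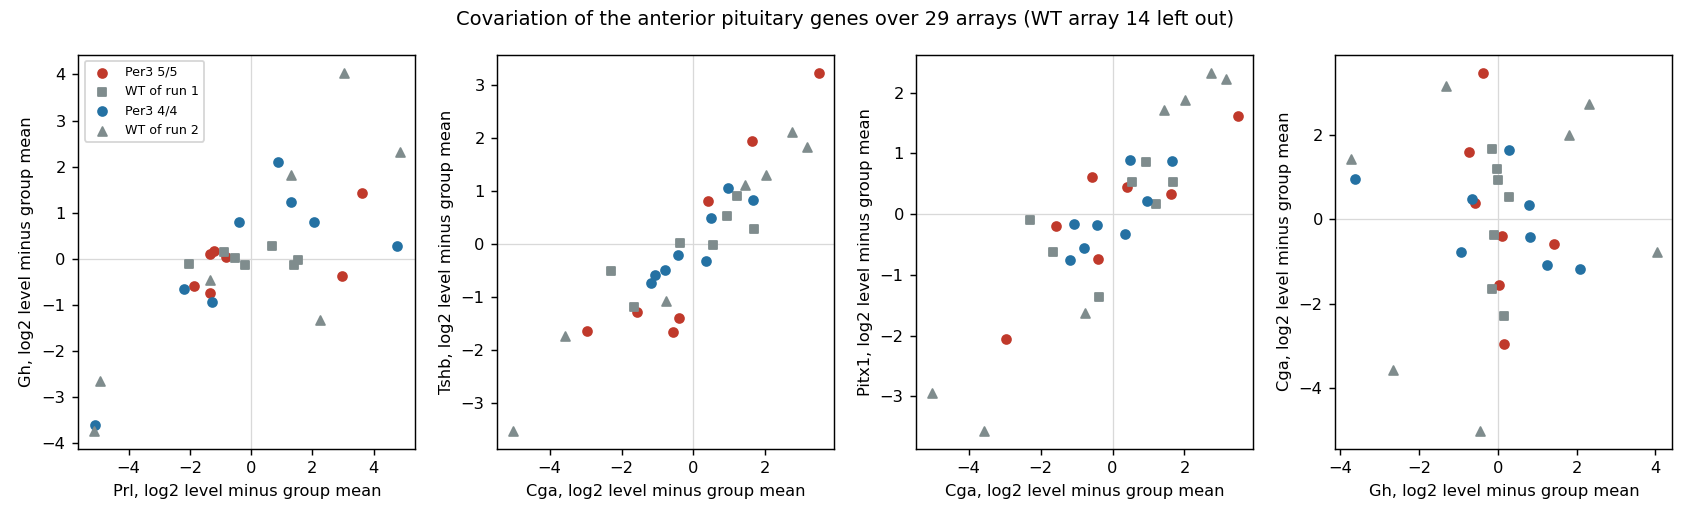
Log2 levels minus group means of 4 pairs of members (both axes, log2 units) on the 29 arrays other than WT array 14. Points are single mice, coloured by genotype. *Prl* rises with *Gh* and *Cga* with *Tshb* and *Pitx1*, while *Gh* and *Cga* show no trend (r = -0.02).

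No pair between the 2 blocks passed with this scaling, and the positive values of *Gh* there rested on array 14. *Gh* and *Cga* correlated with r = 0.44 over 30 arrays (adjusted permutation p = 0.22) and with -0.02 without array 14. *Gh* and *Tshb* went from 0.44 to -0.15, and *Gh* and *Pitx1* from 0.49 to 0.01. Within run 1 the *Gh* and *Tshb* value lay further below 0, where the pair did not pass by r. *Prl* kept intermediate values with *Cga* (0.58, then 0.39) and *Pitx1* (0.59, then 0.39), which did not pass the adjustment. Under other processing of all 30 arrays they did. The pair *Prl* and *Cga* passed with quantile normalization (r = 0.60, adjusted permutation p = 0.0345), normexp background correction (0.69, 0.0145), low values raised to the floor (0.61, 0.0396), slide means subtracted (0.64, 0.00874) and the share of spots well above background as a covariate (0.67, 0.00958). *Prl* and *Pitx1* passed with quantile normalization (0.60, adjusted permutation p = 0.0439), normexp (0.69, 0.0340), slide means subtracted (0.65, 0.0101) and the covariate (0.68, 0.0104), and *Prl* and *Tshb* with normexp (0.67, 0.0378) and slide means subtracted (0.56, 0.0258). Of the 21 pairs, 14 passed with slide means subtracted and 10 with normexp, so that further pairs than those named here passed there. All of these settings kept array 14, and the separation into 2 blocks thus depended on the processing. With slide means subtracted, the permutations moved levels within groups but did not keep to slides. Those p-values and the count of 14 can therefore be too favourable. Within run 1, which does not hold array 14, *Prl* and *Pitx1* correlated with r = 0.61 (rho = 0.64, adjusted permutation p = 0.219 for r), a value above the 0.50 of *Prl* and *Gh* there. *Lhb* joined neither block with this scaling: its r with the other main probes was 0.57 to 0.70 over 30 arrays and 0.01 to 0.27 without array 14. The second *Tshb* probe had r = 0.29 with the main one. Without arrays 10 and 14 it fell as *Lhb* rose (r = -0.60, adjusted permutation p = 0.0217), a pair outside both blocks that passed as well. That the 2 blocks differ in strength from the pairs between them was not tested.

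**Figure D5:**
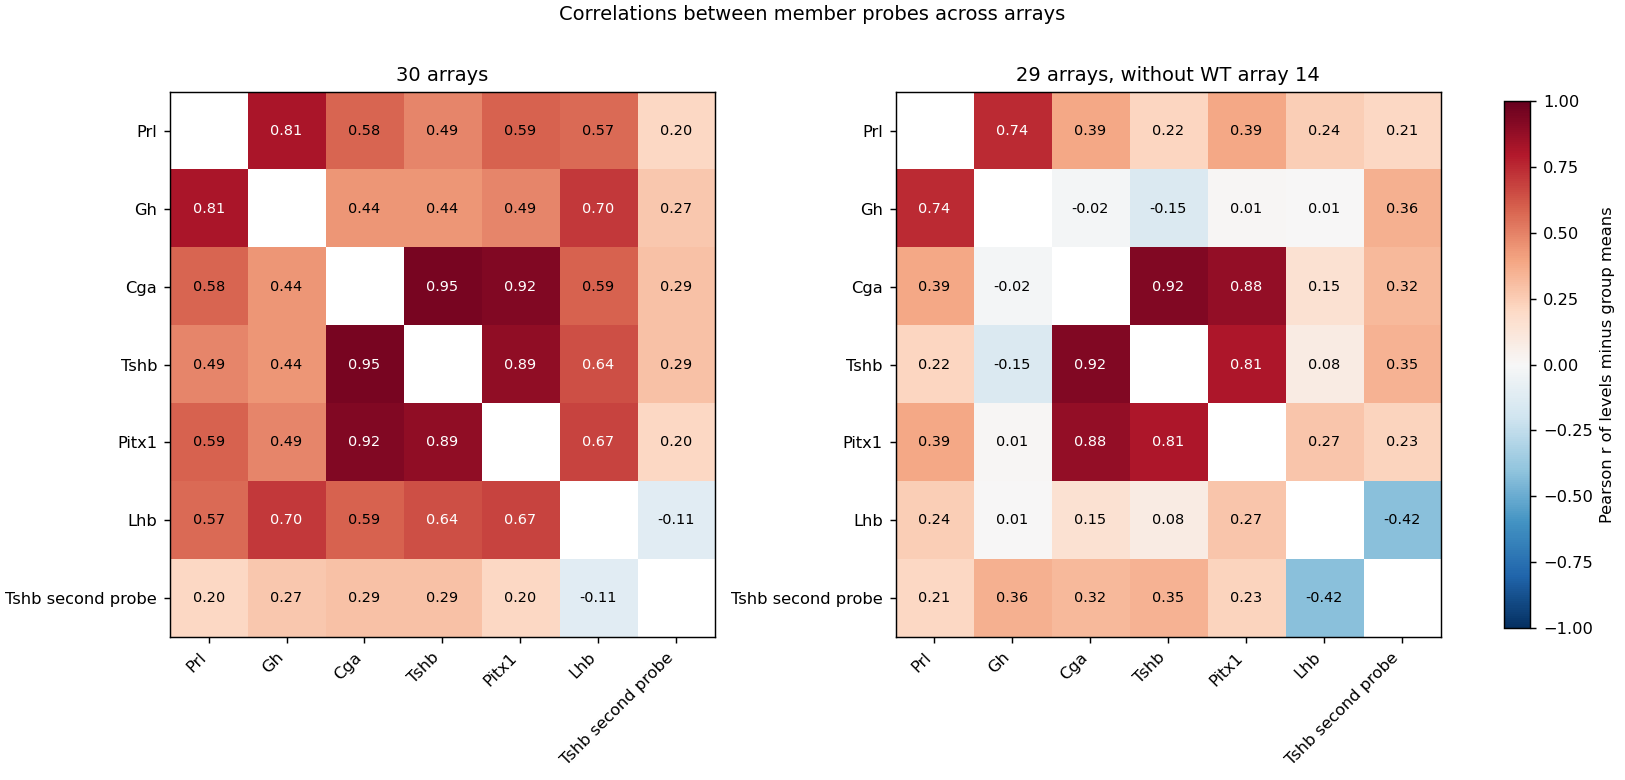
Pearson correlations between the 7 member probes (rows and columns) of log2 levels minus group means, over 30 arrays (left) and without WT array 14 (right). The pair *Prl* and *Gh* and the triangle of *Cga*, *Tshb* and *Pitx1* stay at 0.74 or more in both panels, and *Gh* against the triangle lies between -0.15 and 0.01 on the right.

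Other measures of the arrays moved with these levels, and their part in the covariation was not tested beyond the values given here. *Prl* and *Gh* tended to be higher on arrays with more spots well above background, but not *Gh* in run 1. That share ranged from 58.6% to 74.6%, and without array 14 it correlated with *Prl* at r = 0.65 (rho = 0.59) and with *Gh* at r = 0.68 (rho = 0.42), each with an adjusted permutation p of 0.0204 for r over 42 relations. With all 30 arrays r was 0.60 and 0.50 and did not pass (adjusted permutation p = 0.112 and 0.130). The adjusted permutation p of rho without array 14 was 0.0634 and 0.355. Within run 1 the values of r were 0.50 for *Prl* and -0.06 for *Gh* (adjusted permutation p = 0.451 and 0.877), and within run 2 without array 14 they were 0.69 and 0.76 (0.133 and 0.0416). With that share as a covariate the *Prl* and *Gh* correlation was 0.74 over 30 arrays (adjusted permutation p = 0.00399) and 0.54 without array 14 (0.0607). *Tshb* was higher on arrays with a higher summed level of hypothalamic neuron genes, at r = 0.67 without array 14 (rho = 0.57, adjusted permutation p = 0.0204), and the value for *Cga* was 0.59 (adjusted permutation p = 0.103). With all 30 arrays r was 0.58 and 0.55 (adjusted permutation p = 0.267 for each). Neither rho passed without array 14 (adjusted permutation p = 0.0634 and 0.144). Without arrays 10 and 14 the values of r were 0.51 and 0.34 and did not pass (adjusted permutation p = 0.0813 and 0.379). In run 1, *Tshb* and *Cga* correlated with the brightness of the array, as the log2 75th percentile, at r = 0.85 and 0.73 (adjusted permutation p = 0.12 for each, rho = 0.90 and 0.82 with an adjusted p of 0.0155).

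The genes whose pattern was most like that of *Prl* were taken as the 10 probes outside the set with the highest r over 30 arrays after subtraction of group means. They belonged to *Apobec1* (0.70), *Tspan1*, *Tmc4*, *Ctf1*, *Col13a1*, *Ildr1*, *Hamp2*, *Pkp3*, *Chst14* and *Fshb* (0.64). All 10 had their highest level of run 2 on array 14. Without that array the 10 most alike were *Gpr137c* (0.68), *Olfr1410*, *Vps29*, *Asxl2*, *Sel1l*, *Ubr1*, *Lyrm7*, *Ktelc1*, *Nfkb1* and *Zer1* (0.61), and the lists shared 0 probes. *Gh* came above all of them with either set of arrays. Among the 10 probes most like *Cga* were those of *Ces3* (0.82, and 0.75 without array 14), *Cyp2f2*, *Txnip*, *Epcam*, *Aga*, *Cldn7* and *Pomc*, and 4 of the 10 probes were also among the 10 most alike without array 14.

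The other pituitary genes showed no difference that passed the test by limma. Of 17 genes, 13 had a tested probe, and 0 of their 15 probes were called in either comparison (0.0% and 0.0134% of all probes). The rank product called 1 of the 15 in *Per3* 5/5 and 0 in *Per3* 4/4. *Gnrhr*, *Tbx19*, *Hesx1* and *Neurod4* were too dim to be tested, being well above background on 3, 1, 0 and 1 arrays. The median difference was 0.01 in *Per3* 5/5 and -0.16 in *Per3* 4/4. There it was 0.11 without WT array 14, with 9 of 13 main probes above 0, -0.26 without array 10, with 4 above 0, and -0.03 without both. *Pomc* differed by 0.83 in *Per3* 5/5 (standard error 0.75), and by 0.33 (0.72) without array 1. *Fshb* differed by -1.03 in *Per3* 4/4 (standard error 0.54) and *Ghrhr* by -0.81 (0.52), both being highest on array 14, and without arrays 10 and 14 these were -0.41 (0.30) and -0.17 (0.27). *Pax7*, a gene of the intermediate lobe, had an unadjusted p of 0.0420 in *Per3* 4/4 (-0.72) and was likewise highest on array 14, the value without arrays 10 and 14 being -0.52 (0.0698).

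The hypothalamic genes that govern these hormones were measured on every array. Of 14 genes that act on the pituitary or make dopamine, 13 had a probe, and 0 of their 16 probes were called in either comparison by limma. The rank product called 3 of the 16 as higher in *Per3* 5/5, among 0.17% of all probes, and 0 in *Per3* 4/4. They were single probes of *Slc6a3* (0.0), *Slc18a2*, the vesicular monoamine transporter (0.00706), and *Ddc*, which makes dopamine from its precursor (0.008). Without array 1 those of *Slc6a3* and *Ddc* were called, and without array 6 that of *Slc6a3* only. In *Per3* 5/5 mice 11 of the 13 main probes lay above 0, with a median of 0.20 (0.085 without array 6, with 10 above 0), and in *Per3* 4/4 mice 8 did, with a median of 0.18, which was -0.02 without WT arrays 10 and 14 (6 above 0). *Th*, the rate-limiting enzyme of dopamine synthesis, differed by 0.55 (standard error 0.35) and -0.39 (0.33). *Slc6a3*, the dopamine transporter, differed by 0.87 (0.76) and -0.40 (0.71), and *Drd2*, the receptor through which dopamine restrains lactotrophs, by 0.14 (0.23) and -0.41 (0.21). Without arrays 10 and 14 the *Per3* 4/4 values of *Th*, *Slc6a3* and *Drd2* were -0.10, -0.26 and -0.10. *Ghrh* differed by 0.16 (0.49) and 0.39 (0.46), *Trh* by 0.20 (0.32) and 0.00 (0.30), and *Sst*, which restrains growth hormone release, by -0.06 (0.18) and -0.15 (0.17). *Kiss1*, which drives gonadotropin-releasing hormone neurons, differed by 0.08 (0.44) and 0.79 (0.41). One probe of *Ddc* (0.81) and one of *Slc18a2* (0.76) had an unadjusted p under 0.05 in *Per3* 5/5. That of *Slc18a2* rose to 0.0574 without array 1 and 0.0827 without array 6, and that of *Ddc* to 0.0644 without array 6.

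Receptors and signalling genes downstream of the hormones were not called either. Of 12 genes, 11 had a tested probe, and 0 of 21 probes were called in either comparison by limma, or by the rank product with all arrays, with medians of -0.02 and -0.01 (0.11 in *Per3* 4/4 without arrays 10 and 14). *Prlr*, the prolactin receptor, had 2 probes with an unadjusted p under 0.05 in *Per3* 4/4 (0.83 and 0.61, or 0.54 and 0.31 without arrays 10 and 14), and its main probe differed by -0.02 in *Per3* 5/5. *Prlr* is also abundant in the choroid plexus, whose marker genes had a median difference of 0.93 in *Per3* 4/4 and -0.77 in *Per3* 5/5 with 0 of 11 probes called by limma. The *Per3* 4/4 median was 0.91 without arrays 10 and 14. The rank product called 5 of the 11 as lower in *Per3* 5/5, those of *Ttr* (0.0), *Kcne2* (0.000263), *Slc4a5* (0.00267), *Kl* (0.00869) and *Aqp1* (0.0106), among 0.889% of all probes. In *Per3* 4/4 it called 4 as higher, those of *Ttr* (0.0), *Kcne2* (0.0), *Folr1* (0.00476) and *Slc4a5* (0.00897), among 0.111% of all probes. For *Ttr*, the transthyretin gene, the limma differences were -2.01 with a standard error of 1.41 in *Per3* 5/5 and 2.06 (1.32) in *Per3* 4/4. *Ttr* and *Kcne2* kept these calls without *Per3* 5/5 array 1 or 6 and without WT array 10, 14 or both. *Ghr*, the growth hormone receptor, differed by 0.06 (standard error 0.17) and 0.15 (0.16) by its main probe. Another *Ghr* probe (-0.79) had an unadjusted p under 0.05 in *Per3* 5/5. *Stat5a*, *Stat5b*, *Socs2*, *Cish* and *Igf1*, which act or respond downstream of these receptors, differed by between -0.17 and 0.10 in both comparisons by their main probes.

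The remaining marker genes had no call by limma or by the rank product with all arrays. Hypothalamic neuron genes had medians of 0.25 and 0.50 (0 of 10 probes called), blood genes of -0.07 and -0.25 (0 of 8) and connective tissue genes of -0.24 and 0.14 (0 of 8), in *Per3* 5/5 and *Per3* 4/4 respectively. The *Per3* 4/4 median of the hypothalamic neuron genes rested on WT array 10, where *Hcrt* and *Pmch* were low. It was 0.02 without that array and also without arrays 10 and 14, and the difference of *Hcrt* went from 0.92 to 0.02 and that of *Pmch* from 0.92 to 0.17. Without both arrays the medians of blood and connective tissue genes were -0.26 and 0.27. The summed level of the 6 member genes had a median of 0.97 in *Per3* 5/5 mice and 0.96 in the WT mice of run 1, with ranges of 0.63 to 4.26 and 0.58 to 1.50. In run 2 it was 4.45 in *Per3* 4/4 mice (2.34 to 25.2) and 7.30 in WT mice (0.31 to 986). Levels of the 2 runs were not set against each other, since no genotype but WT was present in both.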

How the data were processed

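Levels came from Agilent Feature Extraction files, 1 per array. The deposited intensity column used was the processed signal, which per the file headers is background-subtracted; run 1 files had 63 columns and run 2 files 27. Control and outlier spots were left out, spots of a probe averaged, and log2 values shifted by the 75th percentile of each array, as in the study's methods. The log2 table deposited by the authors, centred on each probe's median within a run, served as an alternative. Of its 14 columns for run 1, 1 matched the scanner file of its own number and 14 a file of its own group, so array numbers here are those of the scanner files.

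Probes that 50% or more of the arrays of any genotype showed well above background (29947 of 41174; 22391 on all 30) entered a limma model (version 3.58.1, R 4.3.3) of 4 group means, with Benjamini-Hochberg adjustment over all of them at 0.05. Exact permutation tests and 100000 permutations for correlations were run in scipy 1.17.1, and the rank product used 100 permutations. Rank product and limma code was tested on simulated data. Arrays have no read depth; their number limits the precision. Named genes were all members and list genes well above background on 15 or more arrays or with an unadjusted p under 0.05, shown by example, and the 10 probes most like *Prl*. *Sim1*, *Gnrhr*, *Tbx19*, *Hesx1* and *Neurod4* fall outside this rule and were named after their values were seen. Also outside it are *Ces3*, *Cyp2f2*, *Txnip*, *Epcam*, *Aga* and *Cldn7*, named from the 10 probes most like *Cga*. For a gene with several probes the brightest on average was the main one. Lists of cell type markers (other pituitary, hypothalamic neurons, choroid plexus, blood, connective tissue), hormone receptors and hypothalamic regulators came from general knowledge. The members and lists were chosen with earlier results of these data known. Alternatives changed normalization, background correction, filters, slide, variance model, array weights, test and arrays. Results of some list genes are not reported here.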

Additional observations from a re-analysis of the deposited data

Results flagged for a closer look

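In each group of 7 or 8 arrays, the member genes and the other pituitary genes reported here were searched for an array far from the rest by Dixon's ratio. Of 72 groups tested, 9 held such an array. The limit of the ratio stands for about 1 in 20 by chance with independent, normal values. These genes shared their arrays and some levels were at background, so the 9 cannot be set against that rate. WT array 14 was far above the other WT arrays of run 2 for *Lhb* (3.24, the next being -1.80), *Fshb* (0.62, next -3.62), *Ghrhr* (-0.51, next -5.05) and *Lhx3* (-2.52, next -4.97). *Per3* 5/5 array 1 was far above its group for *Gh* (-2.48, next -3.75) and for *Pomc* (5.63, next 3.15). The remaining 3 were *Isl1*, a factor of pituitary and hypothalamic cells, high on *Per3* 4/4 array 5 (-0.18, next -0.98) and on WT array 13 (-0.25, next -1.54), and *Lhx3* low and not well above background on WT array 5 (-6.47, next -5.67). *Prl* itself gave no such array in any group.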

How the results depend on the processing

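No member probe was called by limma under any alternative, and with 1 array of a comparison left out 387 of 420 member differences kept their sign and 33 did not. The 7 numbers of the labels are shared by both groups of run 1, while in run 2 only number 8 is. They did not pair the samples of run 1: same-numbered arrays deviated together with r of -0.28 to 0.40, over 0.1 in 2 of 7 pairs, and 1 of 7 arrays correlated best with its own number. With the replicate number as a block, the members and all probes gave 0 calls in *Per3* 5/5, and it changed no call.

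The cause of the following changes was not tested. In *Per3* 5/5, array weights gave 10 probes past the threshold and turned *Gh* (0.17), *Lhb* (0.066), *Cga* (-0.33), *Tshb* (-0.31) and *Pitx1* (-0.087), and quantile normalization turned *Gh* (0.079). In *Per3* 4/4, the number of probes past the threshold was 7 with normexp, with a stricter filter that asked for every array to be well above background, or with outlier spots kept, 8 with trend and robust moderation, 9 with a random slide block or array weights, and 0 with only the arrays of the run or by the methods' t-test. There array weights turned *Gh* (0.45), *Cga* (-0.17) and *Tshb* (-0.36), normexp turned *Tshb* (-0.47), as did raising low values to the floor (-0.18), and leaving out WT arrays 10 and 14 turned *Prl* (0.11) and *Gh* (0.28). The difference between the 2 effects turned for *Gh* with array weights (-0.28) and without WT arrays 10 and 14 (-0.31), and for *Cga* with normexp (0.18). The rank product called 317 probes in *Per3* 5/5, 1 of them a member, and 47 in *Per3* 4/4, 4 of them members.

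With 1 array left out, the differences in *Per3* 5/5 ranged from -0.26 to 0.10 for *Gh*, -0.17 to 0.011 for *Lhb*, -0.23 to 0.84 for *Cga*, -0.0078 to 0.81 for *Tshb* and -0.20 to 0.41 for *Pitx1*. In *Per3* 4/4 they ranged from -1.70 to 0.36 for *Gh*, -1.73 to 0.33 for *Prl*, -0.28 to 1.61 for *Cga* and -0.50 to 1.05 for *Tshb*. Those between the effects ranged from -0.38 to 1.67 for *Gh*, -1.26 to 0.63 for *Cga* and -0.52 to 1.03 for *Tshb*. The numbers of probes past the threshold were 0 to 3, 2 to 8 and 0 to 2. The rank product called 1 member in *Per3* 5/5 without array 1, 0 without array 6 and, in *Per3* 4/4, 4 without WT array 14, 2 without array 10 and 3 without both, against 0 by limma.

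Among the correlations, *Prl* and *Gh* (0.50) and *Tshb* and *Pitx1* (0.64) did not pass within run 1, and *Prl* and *Gh* ranged from 0.54 to 0.80 without WT array 14, the lowest with the share of spots well above background as a covariate. The number of the 21 pairs that passed was 4 with all arrays, 7 with quantile normalization, 10 with normexp, 6 with low values raised to the floor or with the covariate, and 14 with slide means removed, all of them with array 14. The count with slide means removed rests on permutations that did not keep to slides. Signs turned for pairs that did not pass with all arrays and the main scaling, and not all of these were weak in every setting. *Gh* and *Cga* gave -0.026 as rho, -0.057 without WT arrays 10 and 14, -0.025 without the 2 arrays farthest in *Prl*, -0.38 within run 1 and, without WT array 14, -0.019 with all other arrays and -0.046 to 0.039 over the settings. *Gh* and *Tshb* gave -0.13, -0.20, -0.15, -0.64 and -0.22 to -0.077 in that order, and -0.16 in run 2 without arrays 10 and 14. *Gh* and *Pitx1* gave -0.018 without arrays 10 and 14, -0.014 for run 2 without them, -0.062 within run 1 and -0.014 to 0.016 without array 14. *Gh* and *Lhb* gave -0.020 in run 2 without arrays 10 and 14, -0.0011 without the 2 farthest arrays and, without array 14, -0.20 to 0.0075, with -0.011 in run 2. Within run 1 *Cga* and *Lhb* gave -0.13, *Lhb* and *Tshb* -0.19, and *Gh* and the second *Tshb* probe -0.41. The second *Tshb* probe gave -0.028 with *Pitx1* without arrays 10 and 14, and in run 2 without them -0.10 with *Cga*, -0.11 with the main probe and -0.083 with *Pitx1*. With normexp it gave -0.14 with *Prl*, -0.029 with *Cga* and 0.036 with *Lhb*, and with slide means removed 0.16 with *Lhb*. Settings on WT arrays 10 and 14 together, slide means, the covariate and the rank product, exact tests and gene lists without single arrays were chosen after seeing the data.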
